A study of Mus musculus with 2 samples.

Results

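Nptn, Serinc3, Etnppl and Tlr3 are 4 of the 22587 gene symbols counted in single-cell libraries of sorted hippocampal cells from control (CT) and Opa1 conditional knockout (Opa1 cKO) mice. They were chosen because their levels in neural stem cells (NSCs) were lower in the Opa1 cKO library than in the CT library, so that difference is a description here and not a finding. The rows of both matrices that carry these symbols were taken, and each gene was followed by library in every class of cells, and inside the Opa1 cKO library by the share of transcripts that came from mitochondrial DNA.

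OPA1 is a dynamin-like GTPase of the inner mitochondrial membrane that drives its fusion and keeps the cristae in shape. In both groups a tamoxifen-inducible Cre under the Nestin promoter (Nestin-CreERT2) switched on YFP from the Rosa26 locus. The mice had a C57/BL/6 background, were of both sexes and received tamoxifen (TAM) at 8 weeks of age, and live YFP+ hippocampal cells were sorted at 12 weeks. The study's methods describe CT as this line without the floxed Opa1 allele and Opa1 cKO as the line with both copies floxed, whereas the strain label reads Opa1-Flox;Nestin-CreERT2;ROSA26YFP for both libraries. YFP reports recombination at Rosa26 and not at Opa1, and the 3′ assay also counts Opa1 transcripts that lack the deleted exons.

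Each genotype was 1 library made from the cells of 3 mice, so there is no replicate and no test, and genotype, floxed line, set of mice, cell preparation and library cannot be told apart. The CT library held 4634 barcodes and 10799936 unique molecular identifiers (UMIs, counts of single captured mRNA molecules), and the Opa1 cKO library 6475 barcodes and 18662032 UMIs. The filters kept 1790 and 3764 cells with medians of 2555 and 3008 UMIs. Of the barcode sequences 36 occurred in both libraries, 9 of them among kept cells. Levels are in CPM, the UMIs of a gene scaled to the same total of UMIs in every class, with exact 95% Poisson intervals in parentheses, and log2 ratios carry exact binomial intervals. Both cover counting error only and not the spread between mice.

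Neuroplastin, the product of Nptn, is a cell-adhesion glycoprotein of the immunoglobulin superfamily that serves as a subunit of plasma membrane calcium pumps. SERINC3 is a membrane protein of the serine incorporator family, some of whose members restrict retroviral infection. Etnppl encodes ethanolamine-phosphate phospho-lyase, an enzyme typical of astrocytes in brain that breaks down phosphoethanolamine, a building block of phospholipids. Tlr3 encodes Toll-like receptor 3, which recognises double-stranded RNA in endosomes and signals through the adaptor TRIF. Quiescent NSCs of the adult hippocampus share much of their transcriptome with astrocytes, and cells of both kinds can fall into the NSC pool-like class described here.

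In GENCODE M21 (GRCm38) Nptn (ENSMUSG00000032336) spans chr9:58582240-58657955 on the plus strand and Serinc3 (ENSMUSG00000017707) chr2:163623272-163645131 on the minus strand. Etnppl (ENSMUSG00000019232) spans chr3:130617448-130637521 on the plus strand and Tlr3 (ENSMUSG00000031639) chr8:45395665-45411080 on the minus strand. All 4 are protein-coding, and none lies on chromosome 16, which carries Opa1 (chr16:29579334-29654884). The 3′ end of Nptn overlaps Rec114 on the opposite strand. Serinc3 overlaps the antisense gene 0610039K10Rik, and Tlr3 overlaps the antisense gene Gm45542. Neither antisense gene is a row of the matrices, and whether the counting used strand is not given in the sources used here.

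The promoters of Nptn and Serinc3 are shown because these are the members that were lower in every class of cells, as described further on. RefSeq windows (GRCm38.p6) from 250 bases before to 50 bases after the start were matched for all 4 genes, with a second start for Etnppl. The 250 bases before the start, written 5′ to 3′ along the gene's own strand, lie at chr9:58581990-58582239 (plus) for Nptn and at chr2:163645144-163645393 (minus) for Serinc3. Capitals mark the core of the cyclic AMP response element, TGACGT.
Nptn: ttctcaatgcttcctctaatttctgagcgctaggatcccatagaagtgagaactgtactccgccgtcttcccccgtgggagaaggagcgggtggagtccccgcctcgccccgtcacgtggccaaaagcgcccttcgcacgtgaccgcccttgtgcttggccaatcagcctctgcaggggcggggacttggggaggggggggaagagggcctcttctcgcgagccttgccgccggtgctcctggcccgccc
Serinc3: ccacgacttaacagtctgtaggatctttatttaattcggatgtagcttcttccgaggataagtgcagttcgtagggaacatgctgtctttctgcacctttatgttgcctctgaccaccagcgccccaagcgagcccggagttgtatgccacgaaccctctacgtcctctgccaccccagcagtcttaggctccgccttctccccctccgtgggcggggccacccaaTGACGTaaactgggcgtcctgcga

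Both windows were rich in CpG pairs, with 27 in Nptn and 21 in Serinc3 against a median of 7 over all promoter windows and an upper quartile of 20. Tlr3 held 10 CpG pairs and each Etnppl window 2, below the lower quartile of 3. The GC content was 66.7% in Nptn, 57.7% in Serinc3, 51.0% in Tlr3, and 49.3% and 56.7% at the starts of Etnppl, around a median of 52.7%. Both strands of the whole windows were searched for 3 motifs. TGACGT was found in the Serinc3 window only, at base 227, and in 7.51% of the 32851 windows of all genes. TGATGNAA, the composite site bound by ATF4, and a pair of GAAA repeats set 2 bases apart, as in interferon response elements, were in 3.97% and 3.44% of all windows and in none of the members' windows.

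Clustering of the kept cells gave 8 clusters, which were named from marker genes and are called by those names with "-like". NSC pool-like cells filled 2 clusters. Cluster 0, led by Mt3 and Hsd11b1, held 1374 CT and 792 Opa1 cKO cells. Cluster 1, led by Nupr1, Slc7a11 and Gfap, held 4 CT and 1790 Opa1 cKO cells. Activated NSC-like cells numbered 11 in CT and 412 in Opa1 cKO, and progenitor and neuron-like cells 139 and 169. The number of activated NSC-like cells depended on the clustering, as given in the section on processing. Outside the neuronal lineage there were 39 and 244 ependymal-like, 94 and 167 mural-like, 55 and 89 endothelial-like and 74 and 101 oligodendrocyte-like cells. Globin genes and the mural genes Vtn and Rgs5 were among the leading genes of the endothelial-like cluster.

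The targeted gene Opa1 was sparse in NSC pool-like cells, at 18.5 CPM (14.4 to 23.4, 70 UMIs) in CT against 8.13 CPM (6.33 to 10.3, 69 UMIs) in Opa1 cKO, which is a log2 ratio of −1.19 (−1.69 to −0.69). Every member was more deeply counted than Opa1 in both libraries.

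In NSC pool-like cells of CT, Nptn stood at 247.7 CPM (232 to 264, 936 UMIs in 1378 cells), and in those of Opa1 cKO at 63.0 CPM (57.8 to 68.6, 535 UMIs in 2582 cells). Its level was 3.93-fold lower, a log2 ratio of −1.97 (−2.13 to −1.82), which placed it 14th from the lowest of 10099 genes with at least 50 UMIs. Serinc3 stood at 180 CPM (167 to 194, 680 UMIs) in CT against 54.4 CPM (49.6 to 59.6, 462 UMIs) in Opa1 cKO, which is a log2 ratio of −1.73 (−1.90 to −1.55). Etnppl stood at 100.3 CPM (90.5 to 110.9, 379 UMIs) and 33.8 CPM (30.02 to 38.0, 287 UMIs), a log2 ratio of −1.57 (−1.79 to −1.34). Tlr3 stood at 169.7 CPM (157 to 183, 641 UMIs) and 63.8 CPM (58.5 to 69.4, 541 UMIs), a log2 ratio of −1.41 (−1.58 to −1.24). The intervals of the libraries were apart for all 4 genes, and the median log2 ratio of all genes was 0.04. Of the genes tested, 2.59% were at least 2-fold lower in Opa1 cKO and 2.99% at least 2-fold higher. All 4 members were among the first group, as their choice fixed.

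To compare detection at equal depth, each NSC pool-like cell was thinned to 1500 UMIs, and the shallower cells, 94 in CT and 201 in Opa1 cKO, were dropped. Nptn was detected in 30.1% of CT cells (27.6 to 32.7) and 9.03% of Opa1 cKO cells (7.91 to 10.3). Serinc3 was detected in 23.5% and 8.53% of cells, Etnppl in 12.1% and 5.50%, and Tlr3 in 22.6% and 9.16%. Without thinning the shares were 46.7% and 17.6% for Nptn, 36.4% and 16.1% for Serinc3, 19.2% and 8.75% for Etnppl, and 33.7% and 17.8% for Tlr3. Oligodendrocyte-like cells, with higher median depths of 3768 and 3914 UMIs, served as a measure of free RNA for the astrocyte-enriched members. After the same thinning Etnppl and Tlr3 were each detected in 1.35% of them in CT and 0.990% in Opa1 cKO, which is 1 cell in each case. The intervals lay below those of NSC pool-like cells for Tlr3 in both libraries and for Etnppl in CT. For Etnppl in Opa1 cKO they overlapped, at 0.0251% to 5.39% against 4.62% to 6.49%, so the thinned shares alone did not separate the 2 classes. With all UMIs used, oligodendrocyte-like cells of that library held less Etnppl than NSC pool-like cells. The log2 ratio was −1.88 (−3.77 to −0.51), from 4 and 287 UMIs.

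The members differed in how well they could be followed in the other classes. Nptn and Serinc3 were counted in all 7 classes, and in all 7 their level was more than 2-fold lower in the Opa1 cKO library with an interval below 0. Etnppl and Tlr3 were low outside NSC pool-like cells in both libraries, apart from the 11 activated NSC-like cells of CT, which were too few to tell. In those cells Etnppl had 0 UMIs and Tlr3 had 1, at 33.7 CPM (0.853 to 188). No difference between the libraries was detectable outside NSC pool-like cells among the kept cells at this depth.

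Nptn in CT ranged from 269 CPM (196 to 362) in mural-like cells to 110 CPM (56.6 to 191) in ependymal-like cells. The intervals of mural-like, NSC pool-like, activated NSC-like and endothelial-like cells overlapped at the top of that order, and those of oligodendrocyte-like, progenitor and neuron-like and ependymal-like cells overlapped at the bottom. The intervals of endothelial-like (156 to 278) and activated NSC-like cells (94.8 to 486) also overlapped those at the bottom, so the order had no clear break. In Opa1 cKO the highest level was the 63.0 CPM of NSC pool-like cells, followed by 53.6 CPM (31.8 to 84.7) in mural-like cells. The lowest was 20.7 CPM (9.45 to 39.2) in oligodendrocyte-like cells. No class of the Opa1 cKO library reached the level of the lowest CT class, and the interval of ependymal-like cells in CT reached down into those of NSC pool-like, mural-like and endothelial-like cells in Opa1 cKO.

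Between the libraries Nptn had a log2 ratio of −1.84 (−2.65 to −1.07) in progenitor and neuron-like cells and −2.00 (−3.04 to −0.88) in ependymal-like cells. In mural-like cells it was −2.33 (−3.21 to −1.51), from 44 UMIs in CT against 18 in Opa1 cKO. In endothelial-like cells it was −2.64 (−3.65 to −1.74), the lowest of the 2466 genes with at least 50 UMIs there. In oligodendrocyte-like cells 37 UMIs in CT against 9 in Opa1 cKO gave −2.64 (−3.87 to −1.56). In activated NSC-like cells it was −2.65 (−3.80 to −1.26), but from 7 UMIs in 11 cells of CT.

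**Figure D1:**
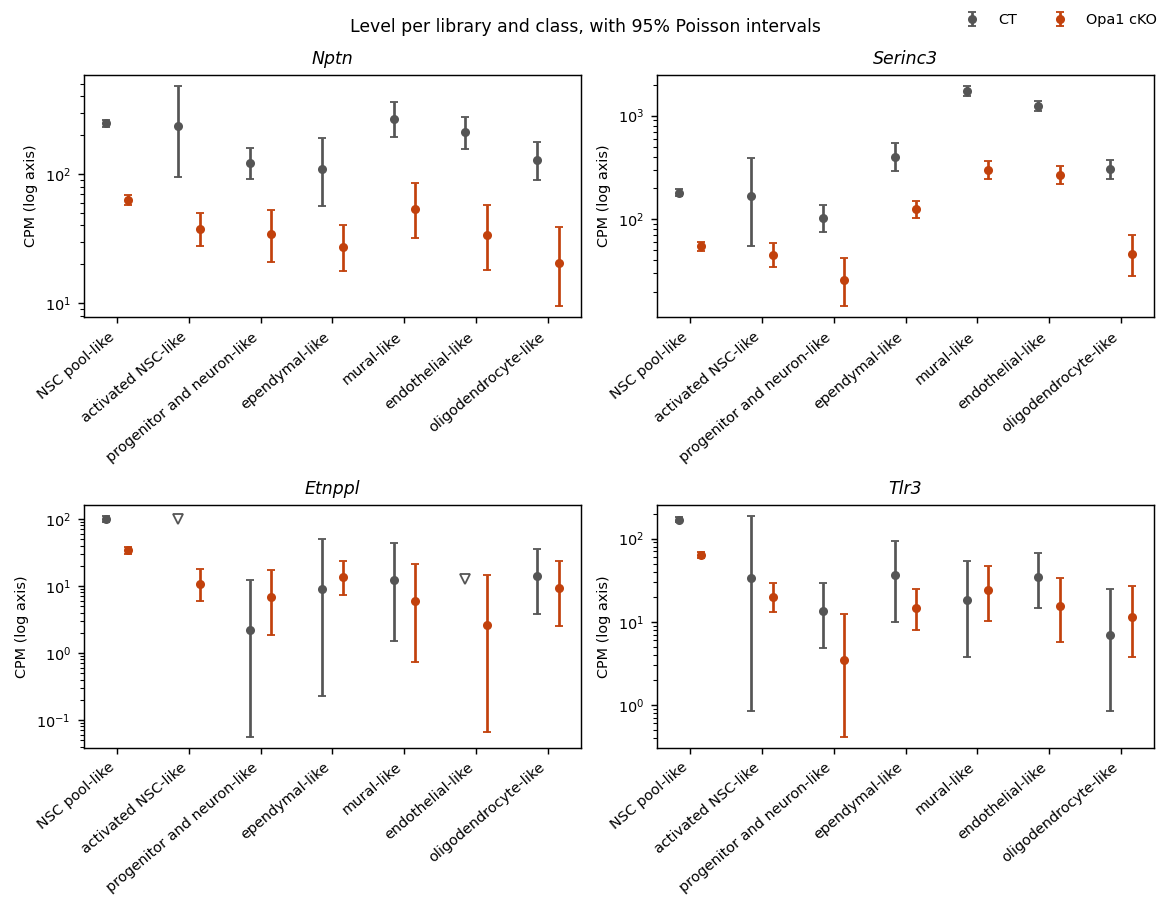
Level of each member (CPM, log axis) in every class of cells, with CT and Opa1 cKO as separate points and 95% Poisson intervals as bars. Nptn and Serinc3 are lower in Opa1 cKO in all 7 classes. Etnppl is at 100.3 CPM (CT) and 33.8 CPM (Opa1 cKO) in NSC pool-like cells. In the other classes with a UMI it is at or below 13.9 CPM. Tlr3 is at 169.7 and 63.8 CPM in NSC pool-like cells and at or below 36.5 CPM elsewhere. Open triangles mark classes with 0 UMIs, drawn at the level of 3 counts, which is 101 CPM for Etnppl in activated NSC-like cells of CT.

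Serinc3 was most abundant outside the neural lineage. In CT it was counted at 1739 CPM (1542 to 1953) in mural-like cells, where 89 of 94 cells held a UMI, and at 1245 CPM (1106 to 1397) in endothelial-like cells. Ependymal-like cells followed at 402 CPM (292 to 539) and oligodendrocyte-like cells at 306 CPM (245 to 376), with overlapping intervals. NSC pool-like cells were at 180 CPM, and progenitor and neuron-like cells had the lowest level, at 102 CPM (74.8 to 136). Activated NSC-like cells were at 168 CPM (54.7 to 393), but from 5 UMIs in 11 cells. These were too few to tell their level from that of NSC pool-like or of progenitor and neuron-like cells.

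In Opa1 cKO the same classes led, with 298 CPM (242 to 362) in mural-like, 269 CPM (220 to 327) in endothelial-like and 124 CPM (103 to 149) in ependymal-like cells. Oligodendrocyte-like cells, which in CT had 306 CPM against 180 CPM in NSC pool-like cells, had 45.9 CPM (28.0 to 70.9) against 54.4 CPM in Opa1 cKO. Between the libraries the log2 ratio of Serinc3 was −2.55 (−2.89 to −2.21) in mural-like cells, the lowest of 2022 genes tested. In oligodendrocyte-like cells it was −2.73 (−3.51 to −2.02), the lowest of 2416 genes. It was −2.21 (−2.55 to −1.88) in endothelial-like cells, where only Nptn was lower. In ependymal-like, activated NSC-like and progenitor and neuron-like cells it was −1.69 (−2.20 to −1.16), −1.90 (−3.20 to −0.22) and −1.99 (−2.94 to −1.13).

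Genes at least 2-fold lower in Opa1 cKO made up 17% of those tested in activated NSC-like and 4.43% in progenitor and neuron-like cells. The 17% is inflated, because a count of 0 was set at 3 counts, or 101 CPM in the 11 activated NSC-like CT cells. A gene with 0 UMIs there and a low level in Opa1 cKO was thus counted as lower in Opa1 cKO. Outside the neuronal lineage the percentages were 3.27% for ependymal-like, 2.27% for mural-like, 3.53% for endothelial-like and 2.98% for oligodendrocyte-like cells. The classes with at least 30 cells in both libraries numbered 6, which leaves out activated NSC-like cells. Of the 3145 genes with at least 20 UMIs in each of those 6 classes, 3 were at least 2-fold lower in all 6, or 0.0954%, and 0 were at least 2-fold higher in all 6. They were Nptn, Serinc3 and Klhl9.

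Etnppl outside NSC pool-like cells ranged from 0 to 13.9 CPM in CT, with 0 UMIs in activated NSC-like and endothelial-like cells and at most 4 UMIs in any other class. A count of 0 in those classes allows a level of up to 101 CPM in the 11 activated NSC-like cells and 12.9 CPM in endothelial-like cells. In Opa1 cKO it ranged from 2.59 CPM in endothelial-like cells to 13.7 CPM (7.28 to 23.4) in ependymal-like cells. Tlr3 ranged from 6.95 CPM in oligodendrocyte-like to 36.5 CPM in ependymal-like cells of CT, and from 3.42 to 23.8 CPM in Opa1 cKO. In every one of these classes the intervals of the libraries overlapped, and the intervals of the log2 ratios that could be formed included 0. Within Opa1 cKO, where activated NSC-like cells were numerous, these cells held less of both genes than NSC pool-like cells, with log2 ratios of −1.66 (−2.55 to −0.89) for Etnppl and −1.68 (−2.31 to −1.11) for Tlr3.

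In oligodendrocyte-like cells the mitochondrial and stress-response mRNAs, which set the libraries apart in NSC pool-like cells, were nearly alike. The 13 mitochondrially encoded mRNAs summed to 49568 CPM in CT against 47805 CPM in Opa1 cKO, and 11 genes of the integrated stress response (ISR), which ATF4 drives when translation is curbed, summed to 1375 and 1398 CPM. Opa1 itself was at 24.3 CPM (9.77 to 50.1, 7 UMIs) and 16.1 CPM (6.46 to 33.1, 7 UMIs). Its log2 ratio of −0.60 (−2.34 to 1.14) rested on too few UMIs to call it alike or different. Nptn and Serinc3 were lower in these cells by the amounts given above. In NSC pool-like cells the mitochondrial mRNAs summed to 58960 CPM in CT against 21684 CPM in Opa1 cKO, and the ISR genes to 1397 and 4612 CPM. Other classes were not all like oligodendrocyte-like cells. In Opa1 cKO 48 of 167 mural-like, 173 of 244 ependymal-like and 2 of 89 endothelial-like cells had under 1% of UMIs from the mitochondrial mRNAs. In CT it was 0 of 94, 0 of 39 and 0 of 55.

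NSC pool-like cells were then grouped by mt share, the percentage of a cell's UMIs from the 13 mitochondrially encoded mRNAs. In CT 1268 of 1378 cells had a share of 3% or more, 107 had 1% to 3% and 3 had under 1%. In Opa1 cKO 768 cells had 3% or more, 240 had 1% to 3% and 1574 had under 1%, with medians of 5.39% in the first group and 0.414% in the last. The ISR genes summed to 1376 CPM in CT cells of 3% or more, 1614 CPM in Opa1 cKO cells of 3% or more and 6051 CPM in Opa1 cKO cells under 1%. Comparing cells of 3% or more in both libraries shows what differed between cells of like mt share. Comparing Opa1 cKO cells under 1% with those of 3% or more shows what differed inside 1 library. These comparisons share the 768 Opa1 cKO cells, so their values are given side by side and no relation is read between them.

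Nptn was at 247.7 CPM (232 to 265) in CT cells of 3% or more and at 73.3 CPM (63.1 to 84.6) in Opa1 cKO cells of the same mt share, a log2 ratio of −1.76 (−1.99 to −1.53). Opa1 cKO cells under 1% held 57.4 CPM (51.1 to 64.3), a log2 ratio of −0.35 (−0.62 to −0.08) to the former. Against CT cells of 3% or more, the Opa1 cKO cells under 1% had a log2 ratio of −2.11 (−2.30 to −1.92).

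Serinc3 was at 182 CPM (168 to 197) in CT cells of 3% or more and at 54.7 CPM (45.9 to 64.6) in Opa1 cKO cells of 3% or more, a log2 ratio of −1.73 (−2.01 to −1.47). Opa1 cKO cells under 1% were at 55.3 CPM (49.1 to 62.1), and the log2 ratio inside the library was 0.02 (−0.28 to 0.32). The median of all genes in that contrast was 0.25.

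Etnppl was at 101 CPM (91.1 to 112) in CT cells of 3% or more, at 52.7 CPM (44.1 to 62.4) in Opa1 cKO cells of 3% or more and at 24.99 CPM (20.9 to 29.7) in Opa1 cKO cells under 1%. The log2 ratio was −0.94 (−1.24 to −0.65) between the libraries and −1.08 (−1.44 to −0.72) inside the Opa1 cKO library. Tlr3 was at 169 CPM (156 to 183), 91.1 CPM (79.7 to 104) and 50.9 CPM (45.0 to 57.4) in the same groups. Its log2 ratios were −0.89 (−1.12 to −0.67) and −0.84 (−1.10 to −0.58). Opa1 cKO cells under 1% set against CT cells of 3% or more gave −2.02 for Etnppl and −1.73 for Tlr3.

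Among cells of 3% or more, 2.74% of 8675 genes were at least 2-fold lower in Opa1 cKO and 0.346% at least 2-fold higher. Nptn and Serinc3 were among the former, as 19th and 21st from the lowest, and Etnppl and Tlr3 were not. Inside Opa1 cKO 1.18% of 9167 genes were at least 2-fold lower in cells under 1% and 5.19% at least 2-fold higher. Etnppl was the only member past 2-fold there. Opa1 had log2 ratios of −0.66 (−1.35 to −0.01) and −0.78 (−1.53 to −0.02) in these contrasts, from 29 UMIs in the shared cells.

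**Figure D2:**
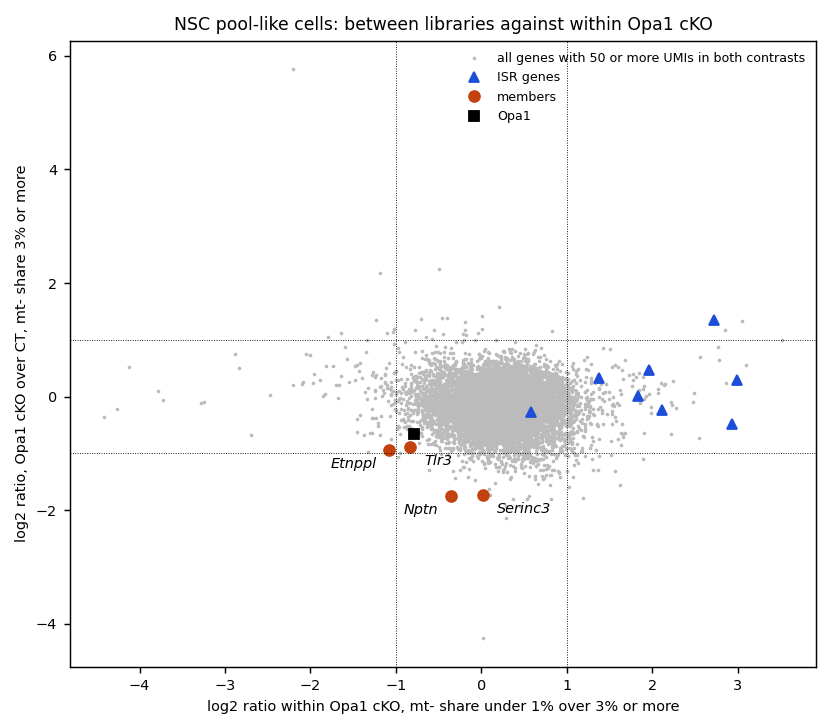
Log2 ratio of every gene between libraries among NSC pool-like cells with an mt share of 3% or more (y axis) against its log2 ratio inside Opa1 cKO, cells under 1% over cells of 3% or more (x axis), with the 4 members marked. Both axes use the same Opa1 cKO cells, so the shape of the cloud is not read. Nptn and Serinc3 lie at −1.76 and −1.73 on the y axis and at −0.35 and 0.02 on the x axis, whereas Etnppl and Tlr3 lie at −0.94 and −0.89 on the y axis and at −1.08 and −0.84 on the x axis.

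Finer bins of mt share gave a like picture within Opa1 cKO for Serinc3, Etnppl and Tlr3, whereas Nptn departed from it in the highest bin. Serinc3 stayed between 24.0 and 61.1 CPM in the 9 bins from under 0.25% to 8% or more, and its lowest bin rested on 6 UMIs. Etnppl was lowest, at 18.3 CPM (10.8 to 28.9), in the 311 cells under 0.25%, and between 47.7 and 59.6 CPM in the bins from 2% upward. Tlr3 was lowest in the same cells, at 40.6 CPM (29.0 to 55.3), and highest at 110 CPM (85.5 to 139) between 6% and 8%. Nptn lay between 48.0 and 70.4 CPM in 8 bins, and at 139 CPM (102 to 185, 47 UMIs in 101 cells) in the bin of 8% or more. Its interval overlapped that of the 2% to 3% bin (36.6 to 104) and of no other Opa1 cKO bin, and the level was below the 227 CPM (191 to 268) of CT cells of the same bin.

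**Figure D3:**
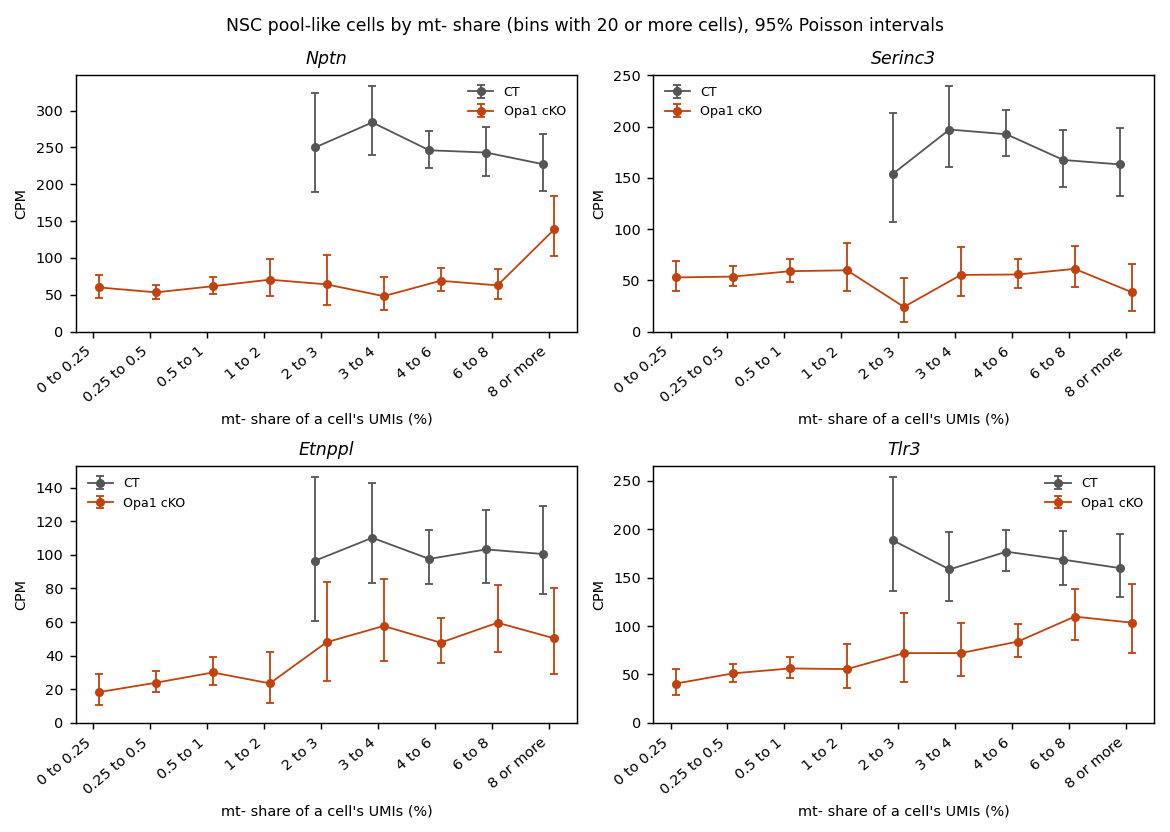
Level of each member (CPM) in NSC pool-like cells by bin of mt share, with CT and Opa1 cKO as separate points and 95% Poisson intervals as bars, for bins of at least 20 cells. Nptn and Serinc3 are apart between the libraries in every bin from 3% upward. Among those bins Tlr3 is also apart in the ones up to 8%, and Etnppl in the ones between 4% and 8%. Etnppl and Tlr3 are lowest in Opa1 cKO cells under 0.25%, at 18.3 and 40.6 CPM.

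In the other classes the comparison of cells of 3% or more rested on few UMIs. Counted with NSC pool-like cells, in which the members were chosen, Serinc3 was more than 2-fold lower in Opa1 cKO in 7 of 7 classes. Its interval lay below 0 in 6, and the exception was progenitor and neuron-like cells (−5.03 to 0.02, 40 and 2 UMIs). Outside NSC pool-like cells its log2 ratios ran from −2.76 to −1.93. In activated NSC-like cells the ratio rested on 5 UMIs in each library. The share of all genes past 2-fold among cells of 3% or more was not counted class by class. Of 1064 genes with at least 20 UMIs in each of 6 classes among such cells, activated NSC-like cells left out, 1 was at least 2-fold lower in all 6. That gene was Serinc3. Nptn, again with NSC pool-like cells counted, was more than 2-fold lower in 6 of 7 classes, with an interval below 0 in 5. The class not past 2-fold was ependymal-like cells, where 12 UMIs in CT against 5 in Opa1 cKO gave −0.75 (−2.60 to 0.86).

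Cells without a detected YFP transcript, left out so far, were examined in a clustering made without that filter. In its NSC pool-like cells with 0 YFP UMIs (1859 CT and 1544 Opa1 cKO cells) Nptn was at 250 and 71.5 CPM, a log2 ratio of −1.81 (−2.01 to −1.61). It was −1.97 in cells with 1 to 2 YFP UMIs and −1.79 (−2.13 to −1.46) in cells with 3 or more. Serinc3 gave −1.68, −1.75 and −1.51, and Tlr3 −1.31, −1.45 and −1.42, all with overlapping intervals. Etnppl differed with YFP. Its log2 ratio was −1.04 (−1.27 to −0.80) at 0 YFP UMIs, −1.30 (−1.55 to −1.05) at 1 to 2 and −2.30 (−2.85 to −1.74) at 3 or more, where it was at 85.9 CPM in CT against 17.5 CPM in Opa1 cKO. Opa1 was also lower in cells with 0 YFP UMIs, at 19.2 CPM (79 UMIs) in CT against 9.11 CPM (33 UMIs) in Opa1 cKO.

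In the other classes of that clustering, cells with 0 YFP UMIs had Serinc3 at 2026 CPM (1852 to 2213) in CT and 324 CPM (256 to 405) in Opa1 cKO when mural-like, and at 1206 and 257 CPM when endothelial-like. Oligodendrocyte-like cells had 305 and 50.7 CPM. In progenitor and neuron-like and ependymal-like cells with 0 YFP UMIs the log2 ratio of Serinc3 was −0.21 (−1.49 to 0.98, 18 and 10 UMIs) and −0.53 (−1.13 to 0.13, 28 and 112 UMIs). Those intervals include 0. For Nptn the 5 classes followed outside NSC pool-like cells gave ratios from −3.57 to −1.73, each with an interval below 0. That clustering had no activated NSC-like class. A further cluster, named microglia (87 CT and 364 Opa1 cKO cells), had the activated NSC markers Ecrg4 and Mycn beside C1qb among its leading genes. The members were not followed in it. Tlr3 had 11 UMIs in CT against 3 in Opa1 cKO in endothelial-like cells with 0 YFP UMIs, a log2 ratio of −2.68 (−5.16 to −0.76). This was the 1 class followed outside NSC pool-like cells in which its interval lay below 0, and the intervals that could be formed for Etnppl in those classes included 0.

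Barcodes with 600 genes or fewer were removed by the filters, and whether they hold free RNA or small cells was not tested. In the 427 CT and 338 Opa1 cKO barcodes of this kind Nptn was at 193 CPM (149 to 246) and 47.8 CPM (25.4 to 81.7), a log2 ratio of −2.02 (−3.00 to −1.14). Serinc3 gave −1.78 (−2.56 to −1.06), Etnppl −1.35 (−2.37 to −0.42) and Tlr3 −1.55 (−2.45 to −0.73). Etnppl was at 122 and 47.8 CPM and Tlr3 at 172 and 58.8 CPM. Their intervals overlapped those of NSC pool-like cells of the same library. The low-content barcodes thus differed between the libraries by amounts near those of NSC pool-like cells, and the part of free RNA in the values of the classes was not tested.

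Markers of other cell types in NSC pool-like cells were set beside these values. The 9 oligodendrocyte markers summed to 381 CPM in CT against 428 CPM in Opa1 cKO, the 9 microglial markers to 70.7 and 134 CPM, and the 6 oligodendrocyte precursor markers, of which 2 were at 0 in each library, to 111 and 322 CPM. Mural markers summed to 149.5 and 111 CPM, endothelial markers to 49.0 and 35.0 CPM and ependymal markers to 166 and 125 CPM. Their part in the members' levels was not tested.

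Genes that work with each member were taken from lists of known partners and pathways. Of 12 partners and relatives of neuroplastin, 7 had at least 50 UMIs, with a median log2 ratio between the libraries of −0.30 against 0.04 for all genes. Gria1, an AMPA receptor subunit, was the one past 2-fold, at 6.88 and 3.18 CPM (26 and 27 UMIs), a log2 ratio of −1.11 (−1.94 to −0.28). The closest relative Bsg (basigin), named after its values were seen like the calcium pump Atp2b1, had a log2 ratio of −0.23 (−0.28 to −0.17). That of Atp2b1 was −0.40 (−0.63 to −0.18). The third family member, Emb (embigin), had 20 UMIs in CT against 6 in Opa1 cKO, too few to enter the count.

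Of 10 serine incorporators and enzymes of serine-derived lipids, 7 were counted and 0 were past 2-fold, with a median of 0.27. The paralogue Serinc1 was at 457 CPM in CT against 550 CPM in Opa1 cKO, which is a log2 ratio of 0.27 (0.19 to 0.35) and thus opposite in sign to Serinc3. Sptssa, a small subunit of serine palmitoyltransferase, had 0.68 (0.53 to 0.83). Serinc5 and Serinc4 had 37 and 11 UMIs over both libraries, and Serinc2 had 0.

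Of 15 genes of the ethanolamine and choline phospholipid pathway, 13 were counted and 0 were past 2-fold, with a median of −0.26. The largest counts were in Chpt1, the last step of phosphatidylcholine synthesis, at −0.40 (−0.52 to −0.28), and in Pcyt2, which activates the phosphoethanolamine that ETNPPL degrades, at −0.75 (−0.87 to −0.63). Among 13 astrocyte genes 0 were past 2-fold, with a median of −0.34 and a range from −0.79 to 0.31. The abundant Aldoc and Glul, named for their counts, were above that median, with log2 ratios of 0.12 and 0.16.

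Of 18 genes of double-stranded RNA sensing, 12 were counted, with a median of −0.13, and 1 was past 2-fold. This was Ticam1, which encodes TRIF, the adaptor of TLR3, and its direction was opposite to that of Tlr3. It was at 2.91 CPM (11 UMIs) in CT against 8.84 CPM (75 UMIs) in Opa1 cKO, which is a log2 ratio of 1.60 (0.68 to 2.66). Of 13 interferon-induced genes 11 were counted and 2 were at least 2-fold higher in Opa1 cKO. Isg15 had 3 UMIs in CT against 88 in Opa1 cKO, which is a log2 ratio of 3.71 (2.11 to 6.01), and Ifit1 11 and 159 UMIs, a log2 ratio of 2.69 (1.81 to 3.72). Inside Opa1 cKO, Isg15, Ifit1 and Bst2 were at least 2-fold higher in cells under 1% mt share, where Tlr3 was lowest. The ISR list had 10 of 11 genes past 2-fold higher between the libraries and 10 of 11 inside Opa1 cKO, but 1 of 8 among cells of 3% or more, which was Mthfd2, a folate enzyme of mitochondria, at 1.35.

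The 3 nearest measured genes on each side of each member were examined because position was not used in choosing the members. Of the 6 neighbours of Nptn 0 were past 2-fold between the libraries, with log2 ratios from −0.66 to 0.75. Insyn1, the lowest, had −1.01 (−2.15 to 0.02, 42 UMIs) among cells of 3% or more. Of those of Serinc3 0 were, with ratios from −0.97 to 0.81. The lowest was Ttpal, 4.26 kb from Serinc3, at −0.97 (−1.61 to −0.32), and among cells of 3% or more it had −1.27 (−2.39 to −0.27) from 48 UMIs. Pkig, 13.3 kb away on the other side, had 0.81 (0.56 to 1.07). The neighbours of Etnppl ranged from −0.37 to 0.49. Among them Casp6, the gene of the protease caspase-6, had 0.35 (−0.05 to 0.77) between all NSC pool-like cells, but 1.12 (0.63 to 1.63) among cells of 3% or more and −1.10 (−1.55 to −0.66) inside Opa1 cKO.

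Tlr3 had 2 of 6 neighbours at least 2-fold lower in Opa1 cKO, where the share over all genes was 2.59%. Klkb1, the gene of plasma prekallikrein 101 kb away, had a log2 ratio of −1.22 (−1.57 to −0.87), and Sorbs2, a cytoskeletal adaptor 96.7 kb away on the other side, had −1.15 (−1.56 to −0.75). Neither was past 2-fold in the other contrasts. Klkb1 had −0.88 (−1.38 to −0.40) among cells of 3% or more mt share and −0.50 (−1.03 to 0.04) inside Opa1 cKO. Sorbs2 had −0.53 (−1.07 to −0.02) and −0.91 (−1.51 to −0.31). Cyp4v3 and Fam149a, which lie between Klkb1 and Tlr3, had 0.08 (−0.23 to 0.40) and 0.65 (0.08 to 1.25).

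**Figure D4:**
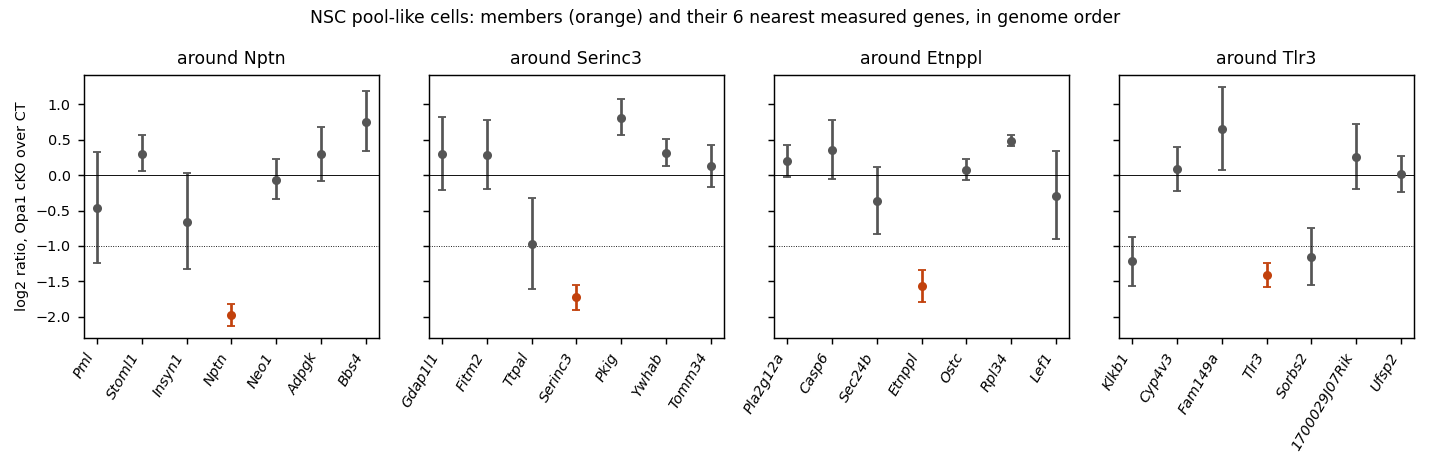
Log2 ratio between the libraries in NSC pool-like cells for each member and its neighbours, in order along the chromosome, with 95% intervals as bars. The neighbours are the 3 nearest genes on each side with at least 50 UMIs in these cells. For Nptn, Serinc3 and Etnppl the member is the only gene drawn that is past 2-fold, and for Tlr3 the neighbours Klkb1 and Sorbs2 are also past 2-fold.

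Genes whose pattern was most like each member were found by Pearson's r of log2(CPM + 10) over 14 units, made of library by class with the Opa1 cKO NSC pool-like cells split by mt share, among 5486 genes with at least 300 UMIs. The units share libraries and depth, so r is a description. For Nptn the closest genes were Ip6k1 (0.864), Birc6 (0.859) and Ecpas (0.854). For Serinc3 they were Tacc1 (0.935), Mbnl1 (0.902) and Zbtb7a (0.892). For Etnppl they were Gstm5 (0.943), Caskin1 (0.940) and Pnpla7 (0.927), and for Tlr3 Adcy2 (0.940), Vegfa (0.939) and Agt (0.921). Of these 12 genes Caskin1, Vegfa and Ip6k1 were at least 2-fold lower in Opa1 cKO in NSC pool-like cells, with log2 ratios of −1.17, −1.08 and −1.01. The share over all genes was 2.59%. NSC pool-like cells of both libraries are among the units that gave r, so the choice of the 12 genes bears on this count and nothing is read from it. Between members r was 0.77 for Etnppl and Tlr3 and 0.66 for Nptn and Serinc3, then 0.40 for Nptn and Tlr3, 0.20 for Nptn and Etnppl, −0.03 for Serinc3 and Tlr3 and −0.33 for Serinc3 and Etnppl.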

How the data were processed

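Live YFP+ cells from the hippocampus, 1 library for CT and 1 for Opa1 cKO, were profiled with the 10x Genomics single cell 3′ v2 chemistry. The deposited matrices hold UMI counts per gene and barcode, whole numbers that the authors made with Cell Ranger on mm10. The submitters' processing notes name Cell Ranger 2.1.1, the matrix headers name another version, and the annotation is not given in the sources used here. The members and the gene lists were chosen with earlier results of these data known.

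Cells with over 600 and under 7500 genes, under 20% mitochondrial UMIs and at least 1 YFP UMI were kept, the criteria listed in the study's methods. The paper reports more cells in each group than the 1790 and 3764 kept here. It also reports more than the 4186 CT and 6121 Opa1 cKO cells that passed without the YFP criterion. The study's set of cells was therefore not reproduced. The libraries were merged, normalised with SCTransform (Seurat 5.3.0, sctransform 0.4.2, R 4.3.3) and clustered with 8 dimensions at resolution 0.2. A cluster was named for the class with most markers among its 50 leading genes by fold over the lower quartile of the other clusters, with at least 3 markers. The form of this rule was settled after the clusters had been seen. Doublets were kept, since Scrublet (scanpy 1.11.5) marked only 2 of 1790 CT and 3 of 3764 Opa1 cKO cells and so did not work here.

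CPM values are the summed UMIs of a gene over the summed UMIs of all genes in that library and class. With 1 library per group no test was run. Intervals are exact at 95%, Poisson for CPM, Clopper-Pearson for shares, and from the binomial split of the counts for log2 ratios. A count of 0 was set at 3 counts for a limit and in the counts of genes past 2-fold. Genes at or past 2-fold among those with at least 50 UMIs are the background for each contrast (20 UMIs per class where a gene was followed over 6 classes). Of 22625 features 22513 matched GENCODE M21 by gene ID. Interval coverage was tested on simulated counts. Named are the members, Opa1, and list genes past 2-fold or else the 2 with most UMIs. The 3 nearest genes with at least 50 UMIs on each side and the 3 genes most alike are named as well. Klhl9, Bsg, Atp2b1 and the paralogues of members were named after their values were seen. Alternatives changed filters, clustering, denominator, thinning, mt share limits and UMI minimums.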

Additional observations from a re-analysis of the deposited data

How the results depend on the processing

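No replicate could be left out. No paired analysis was possible because each group is 1 library. Of the values set against an alternative, 0 reversed, where a reversal needed a main interval that excluded 0. The ratio of Serinc3 inside Opa1 cKO, whose interval included 0, ran from −0.22 to 0.04. Among the values of the main results, 29 moved beyond their main interval or a set fold, and 138 did not. The log2 ratios between the libraries in NSC pool-like cells moved little over 9 alternatives, from −2.03 to −1.94 for Nptn, −1.78 to −1.69 for Serinc3, −1.66 to −1.48 for Etnppl and −1.49 to −1.40 for Tlr3. Leaving out doublets is void, since the caller marked 5 cells or fewer. With an mt share of 5% or more in both libraries the ratio was −1.52 for Nptn and −0.63 for Tlr3, and with cells thinned to 1500 UMIs the ratio of Tlr3 inside Opa1 cKO was −0.48. In ependymal-like cells without the YFP filter Serinc3 had −1.13.

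The minimum of UMIs per gene moved the background. Between the libraries the share of genes at least 2-fold lower was 1.11% with 300 UMIs or more and 5.05% with 10 or more, and 5.05% were at least 2-fold higher with 10 or more. Among cells of 3% or more mt share 0.816% and 5.77% were lower, and 0.0980% and 1.95% higher, with these minimums. Inside Opa1 cKO 3.42% were lower with 10 or more. Of 1341 genes with 50 UMIs or more per class, Serinc3 was the 1 lower in all 6 classes. It was again the 1 with an mt share of 3% or more, where only 1064 genes could be counted. Nptn had too few UMIs for either count, with 12 and 26 in ependymal-like cells, and 12 and 5 at 3% or more. Klhl9 also had too few, with 14 and 13 in mural-like cells, and 10 and 3 in ependymal-like cells at 3% or more.

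Shares of cells depend on depth. In 1 random draw of 1000 UMIs per cell they were 21.9% in CT and 5.91% in Opa1 cKO for Nptn, 16.1% and 5.44% for Serinc3, 9.08% and 3.52% for Etnppl, and 15.7% and 6.42% for Tlr3. A second draw gave 22.7% and 6.15%, 17.2% and 5.01%, 9.30% and 3.45%, and 16.6% and 6.58%. Unthinned they were 46.7% and 17.6%, 36.4% and 16.1%, 19.2% and 8.75%, and 33.7% and 17.8%.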

Other observations

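Klhl9, which encodes an adaptor of the CUL3 ubiquitin ligase, was the gene beside Nptn and Serinc3 that was at least 2-fold lower in Opa1 cKO in all 6 classes, and it was looked at only after that was seen. In NSC pool-like cells it was at 94.8 CPM (358 UMIs) in CT against 45.6 CPM (387 UMIs) in Opa1 cKO, and its log2 ratio of −1.06 (−1.27 to −0.84) is close to the limit of 2-fold. Opa1 cKO cells of 3% or more mt share had 48.3 CPM and those under 1% had 44.4 CPM, so that inside this library the level hardly moved with mt share. The other classes gave log2 ratios from −1.68 to −1.15, and the interval of mural-like cells (−2.36 to 0.05, 14 and 13 UMIs) included 0. With 10 UMIs or more per class, which 5106 genes had, Kat2b joined these 3 genes. Without the YFP filter, where 4907 genes were tested, Nr1d2 took the place of Klhl9. Nptn and Serinc3 were counted in both settings.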
